A study of Mus musculus with 2 samples.

Results

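The joining (J) genes of the immunoglobulin kappa light chain, IGKJ1, IGKJ2, IGKJ4 and IGKJ5, were described in B cell receptor transcripts of Peyer's patches, lymphoid organs in the wall of the mouse small intestine. Members were all contigs (assembled receptor transcripts, each tied to the barcode of a droplet) annotated as kappa, called productive and carrying a J gene of this set. They numbered 7203 of the 22408 contigs in all: 2377 with IGKJ1, 2143 with IGKJ2, 929 with IGKJ4 and 1754 with IGKJ5. The single-cell 5′ V(D)J libraries each pooled cells of 4 adult female mice after magnetic enrichment for CD45, which marks leukocytes, and there was 1 library for each genotype. Mice of the Cre+ group were H2-Ab1 fl/fl; Villin:Cre+, so that Cre, driven by the Villin promoter of intestinal epithelium, deletes the gene of the MHC class II beta chain there. Mice of the Cre- group were H2-Ab1 fl/fl; Villin:Cre-, labelled WT, so the floxed allele was common to both groups. The genotype was taken from the label of each sample, since the series' own design text gives both groups as Cre-negative, and H2-Ab1 was not measured. Gene expression was not used here, so no cell type marker other than the receptor itself was checked.

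A kappa chain gene is made when a V gene is joined to a J gene upstream of the single constant gene. IGKJ1 lies nearest to the V genes and IGKJ5 nearest to the constant gene, and IGKJ3 between them is not functional in mice. A cell whose first join fails or gives a self-reactive receptor can rearrange the same chromosome again, joining a V gene from outside the first join to a J gene downstream of it. This secondary rearrangement, called receptor editing when it replaces a self-reactive chain, can go on until the J genes run out, after which the lambda chain may be rearranged. Use of downstream J genes is therefore often read as a trace of it.

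In the RefSeq table of GRCm38.p6 all these genes lie on chromosome 6. Igkj1 spans chr6:70722562-70722599, Igkj2 chr6:70722916-70722954, Igkj4 chr6:70723548-70723585 and Igkj5 chr6:70723886-70723923, ahead of the constant gene Igkc at chr6:70726435-70726754. The 4 members thus start within 1324 bases of each other. Of the V genes used here, Igkv3-1 ended 18.4 kb before Igkj1 and Igkv2-137, the farthest, 3166 kb before it. All 94 V genes of productive kappa contigs were found in that table.

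The J gene can be read from the end of the CDR3, the loop coded across the V-J joint, and the last 12 bases of the CDR3 are shown 5′ to 3′ because the members differ there. Capitals mark the codon before the last 2 codons, which is where the 4 genes code for different residues. The most frequent end of each member, tryptophan, tyrosine, phenylalanine and leucine in this order, was:
IGKJ1: ccgTGGacgttc
IGKJ2: ccgTACacgttc
IGKJ4: ccaTTCacgttc
IGKJ5: ccgCTCacgttc
Some contigs had another codon there. The commonest such ends of IGKJ1 coded for arginine and proline, and an end with leucine, the same letters as a common end of IGKJ5, recurred with IGKJ4:
IGKJ1, arginine: cctCGGacgttc
IGKJ1, proline: cctCCGacgttc
IGKJ4, leucine: cctCTCacgttc

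Depth was alike in both libraries. The Cre+ library held 3915 members in 3559 barcodes with 239334 kappa UMIs (unique molecular identifiers, which count transcripts), and the Cre- library 3288 members in 3046 barcodes with 241400. IGKC was the constant gene called in 3911 and 3285 of them. IGKJ3 was in 0 productive kappa contigs of either library, where 3 counts would be 0.0766% (Cre+) and 0.0912% (Cre-), the limit that a count of 0 allows, and in 2 contigs of any kind, both incomplete, of the Cre+ library. Of the barcodes with a productive kappa contig, 9 occurred in both libraries, 0 of them with the same kappa chain. With 1 pooled library per genotype there was no replicate check and no test. Percentages below carry exact 95% Clopper-Pearson intervals, and differences an interval combined from both exact intervals. They cover counting error only, and cells of 1 clone are not independent.

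A clone in each library bore on the values. Cells with the same heavy-chain V gene, J gene and CDR3 length and at least 85% CDR3 identity were taken as a lineage. The Cre- library's largest lineage had 417 of 2947 cells with 1 heavy chain. It gave 400 kappa contigs, 398 of them in IgA cells, and 387 carried the same IGKV9-123 chain with IGKJ1. In the Cre+ library the largest lineage held 64 of 3294 cells and 64 kappa contigs, of which 48 carried an IGKV4-72 chain with IGKJ5. The CDR3 of both chains is shown because leaving them out changed several results, with the capitals as above:
IGKV9-123 with IGKJ1, Cre-: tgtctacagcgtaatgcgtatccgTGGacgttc
IGKV4-72 with IGKJ5, Cre+: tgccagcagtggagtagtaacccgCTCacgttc
The IGKV9-123 chain was also found in 16 contigs outside its lineage and in 1 contig of the Cre+ library. The IGKV4-72 chain was found in 32 contigs outside its lineage and in 6 of the Cre- library. Only barcodes with 1 heavy chain were placed in lineages, and all others count as outside here and below. Of the 32 contigs, 6 had no heavy chain and 3 had 2 or more in the barcode, and of the 16 contigs 4 and 1. Whether those belong to the clone is not known. Outside the lineages the contigs with either chain were shallow, with medians of 2.5 (Cre+) and 2 UMIs (Cre-). Inside the lineages they were also shallow, at 6.5 and 5, against 26 or more for each member without the largest lineage. Stray RNA of the clone may be among either, which was not tested.

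IGKJ4 was the least used member in both libraries, and IGKJ1, IGKJ2 and IGKJ5 each took a larger share. IGKJ1 made up 29.5% (28.1 to 30.9) of the Cre+ members and 37.2% of the Cre- members, a difference of -7.72 percentage points (-9.92 to -5.52). IGKJ2 made up 30.1% and 29.3% (difference 0.85 points, -1.29 to 2.99). IGKJ4 made up 14.1% and 11.5% (difference 2.58 points, 1.0 to 4.13). For IGKJ5, the most downstream member, the shares were 26.3% and 22.0% (difference 4.29 points, 2.29 to 6.28). As counted, the Cre+ library thus had less IGKJ1 and more IGKJ4 and IGKJ5.

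These differences did not hold without the barcodes of the largest lineages. IGKJ1 was then 29.9% in Cre+ and 28.7% in Cre-, and the difference turned to 1.17 points (-1.05 to 3.38). IGKJ5 was 25.4% and 25.1%, a difference of 0.30 points (-1.82 to 2.41). IGKJ4 was 14.2% and 13.1% (1.14 points, -0.54 to 2.81). IGKJ2 was 30.5% and 33.1%, and only its interval then lay off 0 (-2.62 points, -4.89 to -0.35). In cells with an unswitched heavy chain (IgM or IgD) that interval included 0 (-2.41 points, -4.97 to 0.14).

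**Figure D1:**
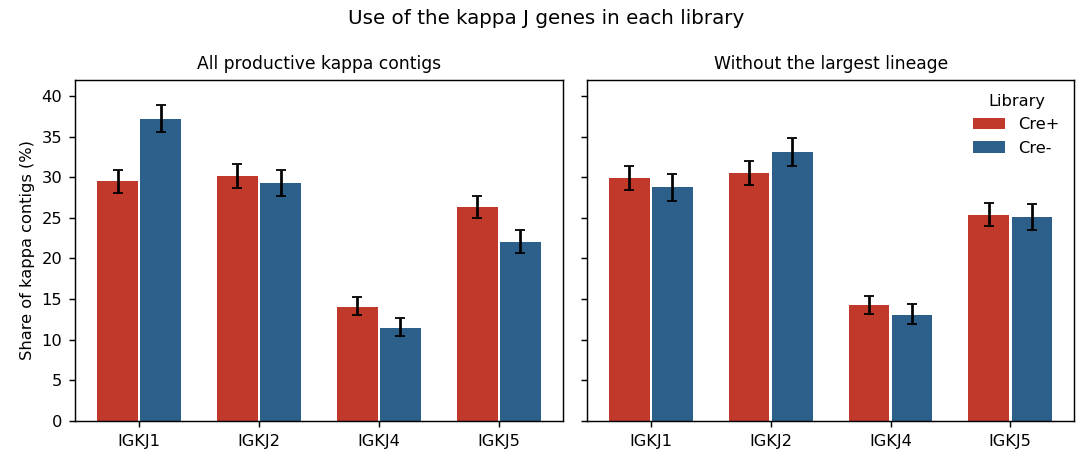
Share of productive kappa contigs with each J gene (y axis, percent) in the Cre+ (red) and Cre- (blue) library, over all contigs (left) and without the barcodes of the largest lineage (right). Bars are shares and lines exact 95% intervals that cover counting error only. The IGKJ1 bar of the Cre- library stands at 37.2% on the left and 28.7% on the right.

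The J gene varied widely with the V gene it was joined to, and V genes rich in a member in 1 library were mostly rich in it in the other. Among the 29 V genes with 40 or more members in each library, the IGKJ1 share ran from 0% to 67.7% in the Cre+ and from 1.56% to 56.3% in the Cre- library. IGKJ5 ran from 1.61% to 75.2% and from 5.0% to 57.6%. IGKJ2 spanned 11.2% to 55.1% and 13% to 60.4%, and IGKJ4 3.06% to 38.4% and 0% to 28.1%. These ranges include the clones: in the Cre+ library IGKV4-72 set the 11.2% and 75.2%, and IGKV1-110 the 38.4%. Without the largest lineage, the IGKJ1 share of a V gene in 1 library followed that in the other over these 29 genes (Pearson's r = 0.88, Spearman's rho = 0.88), as did that of IGKJ5 (r = 0.80, rho = 0.80) and IGKJ2 (r = 0.71, rho = 0.65). For IGKJ4, the rarest, it was r = 0.31 and rho = 0.48. The second-largest Cre+ lineage, with an IGKV1-110 chain and IGKJ4, was still included here. IGKV1-110 thus had IGKJ4 in 38.3% of Cre+ and 10.4% of Cre- contigs. These correlations are descriptions across genes, which are not replicates, and both libraries share the annotation behind the gene calls.

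At the low end, 3 V genes were almost never joined to IGKJ1. IGKV17-121 used it in 0 of 64 Cre+ contigs and 1 of 46 Cre- contigs. IGKV2-137 used it in 0 of 65 and 1 of 53, and IGKV17-127 in 2 of 88 and 1 of 64. They were chosen for their Cre+ values, and the Cre- library, which the choice did not use, placed all 3 at 2.17% or lower. At the high end of the Cre+ values stood IGKV3-2, with IGKJ1 in 42 of 62 Cre+ contigs (67.7%, 54.7 to 79.1). In the Cre- library it was in 20 of 53 IGKV3-2 contigs (37.7%, 24.8 to 52.1), below IGKV19-93 (54.1%) and IGKV12-46 (54.0%). IGKV3-2 was thus not among the highest in the Cre- library. By Cre+ share IGKV1-135 followed with 95 of 152 (62.5%) and 67 of 119 in Cre- (56.3%), and IGKV10-96 with 126 of 210 (60.0%) and 85 of 160 (53.1%). Place on the chromosome did not separate these groups, since IGKV1-135 lies between IGKV17-127 and IGKV2-137, at 3112 kb from Igkj1 against 2861 and 3166 kb.

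The contigs that were not called productive, which were not used to pick the V genes, lacked IGKJ1 with the 3 low V genes and were rich in it with 1 of the 3 high ones. Over both libraries, 683 kappa contigs with a V and a J gene lacked a productive call. The productive flag was False for 53 and empty for 630, 663 were full length, and 70 had a CDR3, so reading frame could not be checked in most. Among those of IGKV17-121, IGKV2-137 and IGKV17-127, IGKJ1 was in 0 of 46 (upper exact bound 7.71%), against 5 of 380 productive contigs (1.32%). Among the V genes at the high end, IGKV1-135 had IGKJ1 in 61 of 76 (80.3%, 69.5 to 88.5), against 162 of 271 productive contigs (59.8%). IGKV3-2 had it in 3 of 11 (27.3%, 6.02 to 61.0) and IGKV10-96 in 5 of 13 (38.5%, 13.9 to 68.4). The intervals of both include the 206 of 683 (30.2%) found over all contigs not called productive, so these few contigs did not set them apart. Those 206 include the 61 of IGKV1-135.

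**Figure D2:**
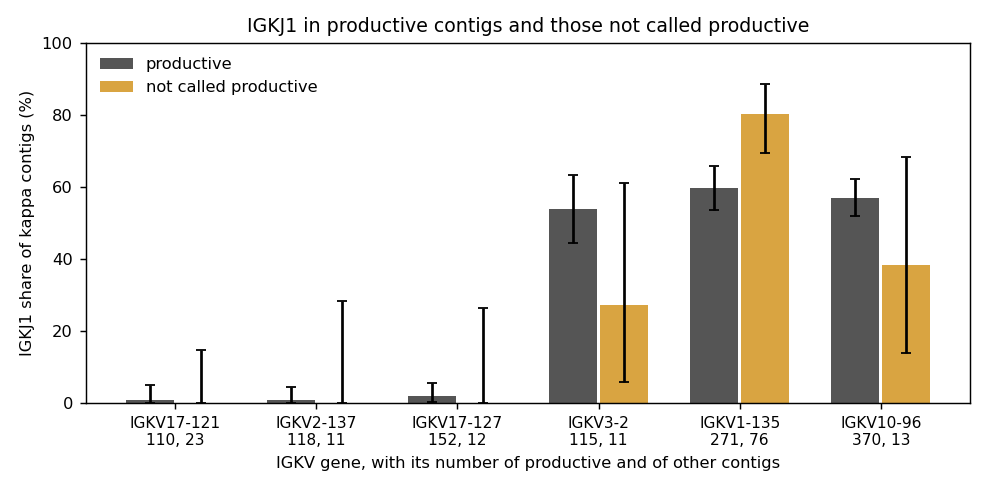
Share of kappa contigs with IGKJ1 (y axis, percent) among productive contigs (grey) and those not called productive (yellow), both libraries summed, for the 3 V genes with the lowest (left) and the 3 with the highest (right) IGKJ1 share in productive Cre+ contigs. Lines are exact 95% intervals, and the numbers under each gene are its contigs of each kind. Among contigs not called productive, the 3 left genes are at 0, IGKV1-135 is at 80.3%, and IGKV3-2 and IGKV10-96 have wide intervals around 27.3% and 38.5%.

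Among the 29 V genes, ranked by their Cre+ share, IGKJ5 was highest with IGKV4-72. It was in 94 of 125 Cre+ contigs (75.2%) and 10 of 41 Cre- contigs (24.4%). Without the largest lineages it was in 46 of 77 (59.7%) and 24.4%. Of those 46 contigs, 32 carried the chain of the large Cre+ clone in barcodes outside its lineage. Without that chain IGKJ5 was in 14 of 45 Cre+ contigs (31.1%, 18.2 to 46.6), and IGKV4-72 no longer stood above the Cre- library's 24.4% (12.4 to 40.3). IGKV5-43 had 39 of 61 (63.9%) and 34 of 59 (57.6%), and IGKV17-127 had 42 of 88 (47.7%) and 28 of 64 (43.8%). By the same ranking IGKJ5 was rarest with IGKV3-2 (1 of 62 and 7 of 53), IGKV10-96 (9 of 210 and 8 of 160) and IGKV2-109 (3 of 51 and 6 of 42). In the Cre- library IGKV3-2 (13.2%) and IGKV2-109 (14.3%) were not the lowest, with IGKV3-4 at 5.77% and IGKV19-93 at 6.56%. In the Cre+ library IGKV3-2 and IGKV10-96 were thus among the highest for IGKJ1 and the lowest for IGKJ5. Across the 29 genes the shares of these 2 members ran against each other (r = -0.77 in Cre+ and -0.68 in Cre-), which shares of 1 total tend to do. The only pair of members with a positive r above 0.1 was IGKJ4 and IGKJ5 in the Cre- library (r = 0.25), and in the Cre+ library that r was -0.06.

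IGKJ2 made up most of the members of IGKV14-111 in the Cre+ library (54 of 98, 55.1%, and 38 of 78, 48.7%, in Cre-), of IGKV2-137 (33 of 65, 50.8%, and 32 of 53, 60.4%) and of IGKV6-15 (69 of 136, 50.7%, and 45 of 108, 41.7%). By Cre+ share it was lowest with IGKV4-72 (11.2% and 29.3%), IGKV8-24 (17.7% and 22.0%) and IGKV16-104 (20.4% and 13%). The Cre+ value of IGKV4-72 includes the large clone, whose chain carries IGKJ5. Without the 2 largest lineages and their chains, IGKJ2 was in 14 of 45 Cre+ contigs of IGKV4-72 (31.1%, 18.2 to 46.6). IGKJ4 was highest with IGKV1-110 in the Cre+ library (68 of 177, 38.4%), where the Cre- library had 13 of 125 (10.4%). Left without those lineages and chains, IGKJ4 was in 29 of 137 Cre+ contigs of IGKV1-110 (21.2%). With IGKV3-12 it was in 12 of 45 and 4 of 44 contigs, and with IGKV17-121 in 13 of 64 and 9 of 46. By Cre+ share, IGKV14-111 (3 of 98 and 7 of 78), IGKV19-93 (4 of 90 and 1 of 61) and IGKV1-135 (7 of 152 and 7 of 119) used it least. In the Cre- library IGKV8-30 (0 of 44) and IGKV3-4 (2 of 52) had lower IGKJ4 shares than IGKV14-111.

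**Figure D3:**
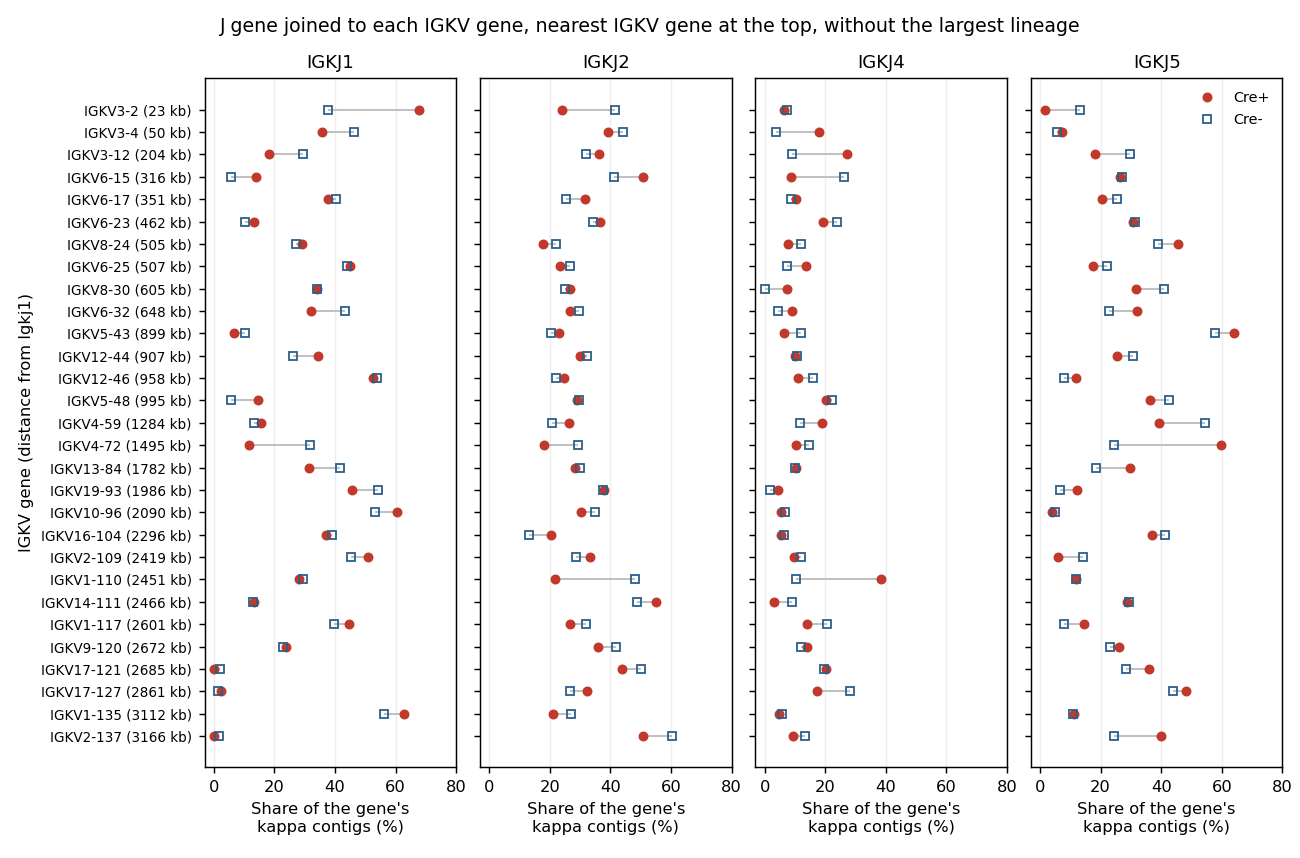
Share of a V gene's productive kappa contigs (x axis, percent) joined to each J gene, for the 29 V genes with 40 or more members in each library, ordered by distance from Igkj1 with the nearest at the top. Filled red circles are the Cre+ and open blue squares the Cre- library, both without the largest lineage. IGKV17-121, IGKV17-127 and IGKV2-137 lie near 0 for IGKJ1, and IGKV1-135 between them above 50%.

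By family, IGKV17 had the lowest IGKJ1 share in both libraries, at 1.32% of its Cre+ and 1.82% of its Cre- members without the largest lineage, and had IGKJ5 in 43.1% and 37.3%. IGKV4 and IGKV5 also had little IGKJ1 (IGKV4 16.0% and 15.4%, IGKV5 12.4% and 13.7%) and much IGKJ5 (IGKV4 40.2% and 41.2%, IGKV5 42.1% and 43.5%). IGKV8 had IGKJ5 in 39.0% and 34.6%, and IGKV16 in 37.0% and 41.3%. IGKV16 had IGKJ1 about as often, in 37.0% and 39.1%. The reverse of IGKV4 and IGKV5 was seen in IGKV10, with IGKJ1 in 60.2% and 49.5% and IGKJ5 in 4.72% and 6.70%. IGKV19 had 45.6% and 54.1% IGKJ1, IGKV1 43.2% and 40.1%, IGKV12 44.7% and 43.5%, and IGKV3 42.3% and 35.7%. In IGKV3 of the Cre- library IGKJ2 was slightly more frequent (36.9%). IGKJ2 led in IGKV14 (46.8% and 44.7%), IGKV2 (41.7% and 46.9%) and IGKV6 (36.4% and 34.7%). IGKV13 was led by IGKJ5 in the Cre+ library (33.9%, against 25%) and by IGKJ2 in the Cre- library (34.8%, against 28.6%). IGKV9, the family of the large Cre- clone, had 86.1% IGKJ1 in the Cre- library with the clone's lineage. Without that lineage it had 40.3% (48 of 119), against 28.1% in the Cre+ library. Of those 48 contigs, 16 carried the clone's chain in barcodes outside its lineage.

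Use of the downstream J genes did not rise with the distance of the V gene. V genes were split into 4 classes of near-equal gene number, from 18.4 to 578 kb, 605 to 1305 kb, 1322 to 2151 kb and 2180 to 3166 kb from Igkj1. Without the largest lineage, IGKJ5 took 23.9%, 33.7%, 22.8% and 22.5% in these classes of the Cre+ library, from near to far, and 25.5%, 35.8%, 19.3% and 20.5% in the Cre- library. The second class was the highest in both, and IGKV4 made up 36.5% of its members. IGKJ1 was highest in the next class out (36.6% and 37.6%), where IGKV10 was the largest family. Across the 29 V genes, the correlation of distance with the IGKJ5 share was r = 0.04 in Cre+ and -0.16 in Cre-. The table used gives no strand for V genes, so joins by deletion and by inversion were not told apart.

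Between the libraries, few V-J combinations differed. Of 118 combinations with 20 or more members, 5 (4.24%) differed by a ratio of 1.5 or more with intervals apart. They were IGKV9-123 with IGKJ1 (1 contig in Cre+, 403 in Cre-), IGKV4-72 with IGKJ5 (94 and 10), IGKV1-110 with IGKJ4 (68 and 13), IGKV1-110 with IGKJ2 (39 and 60) and IGKV6-15 with IGKJ4 (12 and 28). Without the largest lineage, 4 of 116 (3.45%) were past that rule, and when the 2 largest lineages were both left out 3 of 116 (2.59%), namely IGKV4-72 with IGKJ5 (46 and 10), IGKV1-110 with IGKJ2 (38 and 60) and IGKV6-15 with IGKJ4 (12 and 27). The chains of these lineages also occurred outside them, that of IGKV4-72 in 32 and that of IGKV1-110 with IGKJ4 in 10 Cre+ contigs. The second-largest Cre- lineage had only 5 cells and no repeated kappa chain. The chain taken for it, IGKV10-94 with IGKJ1, was in 1 of its 6 kappa contigs, and also in 4 Cre+ contigs. Without these chains as well, 2 of 116 (1.72%) were past the rule, IGKV1-110 with IGKJ2 and IGKV6-15 with IGKJ4, while IGKV4-72 with IGKJ5 was in 14 and 10 contigs. Leaving the chains out of both libraries left the same combinations, 2 of 115 (1.74%). The 68 Cre+ contigs of IGKV1-110 with IGKJ4 held 29 of the second-largest Cre+ lineage, 38 were left without the 2 largest lineages, and 29 of these had a chain other than that lineage's. Of the 60 Cre- contigs of IGKV1-110 with IGKJ2, 53 could be placed in a lineage, and these lay in 53 different lineages. Their kappa CDR3s were less varied: 42 of the 60 had the same CDR3, of 13 found. In the Cre+ library 29 of 39 had the same CDR3, of 9 found.

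Counted within a V gene, the share of a J gene had intervals apart between libraries in 6 of 116 cases (5.17%), and in 5 (4.31%) without the 2 largest lineages. These 5 were IGKV1-110 with IGKJ2 (26.0% Cre+, 48.0% Cre-) and with IGKJ4 (26.0%, 10.4%), IGKV3-2 with IGKJ1 (67.7%, 37.7%), IGKV4-72 with IGKJ5 (59.7%, 24.4%) and IGKV6-15 with IGKJ4 (8.89%, 25.5%). Without the chains of these lineages as well, 3 (2.59%) were left. IGKV4-72 with IGKJ5 was then at 31.1% and 24.4%, and IGKV1-110 with IGKJ4 at 21.2% (14.7 to 29.0) and 10.4% (5.65 to 17.1), with intervals that overlap in both cases. Leaving these chains out of both libraries gave 3 as well, with IGKV4-72 and IGKJ5 at 14 of 45 and 4 of 35 (11.4%, 3.20 to 26.7). The 42 Cre+ contigs of IGKV3-2 with IGKJ1 had 6 different CDR3s and lay in 31 lineages, the largest with 2 of these contigs.

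Cells with more than 1 light chain have joined light-chain genes more than once, so the members were compared by the number of light chains. Among barcodes with 1 heavy chain and a kappa chain, 244 of 3138 in the Cre+ library (7.78%) and 178 of 2787 in the Cre- library (6.39%) held 2 or more kappa chains and no lambda chain. IGKJ5 made up 27.1% (23.3 to 31.3) of their contigs against 24.5% in barcodes with a lone kappa chain in the Cre+ library, both without the largest lineage, a difference of 2.67 points (-1.55 to 7.13). In the Cre- library it was 26.6% against 25.3% (1.34 points, -3.61 to 6.64). IGKJ1 differed by -1.49 points (-5.85 to 3.08) and 0.91 points (-4.20 to 6.33). A droplet with 2 cells also gives 2 kappa chains, no doublet caller was run, and the part of doublets was not tested.

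Barcodes that held a lambda chain besides kappa were few, 47 and 39. The 48 kappa contigs of the Cre+ barcodes had IGKJ1 in 5 (10.4%, 3.47 to 22.7) and IGKJ5 in 20 (41.7%, 27.6 to 56.8). The 41 of the Cre- barcodes had IGKJ1 in 16 (39.0%) and IGKJ5 in 12 (29.3%, 16.1 to 45.5). The clone's chain was among them in 9 and 8 contigs. Without that chain, IGKJ5 was in 11 of 39 Cre+ contigs (28.2%, 15 to 44.9) and 12 of 33 Cre- contigs (36.4%, 20.4 to 54.9), which include the 24.3% and 25.2% of barcodes with a lone kappa chain. IGKJ1 was in 5 of 39 (12.8%, 4.30 to 27.4), below the 30.7% of lone kappa chains in that library, and in 8 of 33 (24.2%, 11.1 to 42.3), not apart from 28.0%.

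The J gene of a cell's productive kappa contig lay about as often upstream as downstream of that of its other kappa contig. A second join on the same chromosome removes the first or moves it away from the constant gene, so kappa transcripts found together come as a rule from separate chromosomes, or from separate cells, and their joins have no order. These counts therefore describe pairs and do not measure secondary rearrangement. In the Cre+ library 310 barcodes had exactly 1 productive and 1 not productive kappa contig: the J gene of the productive contig was downstream in 113, upstream in 112 and the same in 85. Of pairs with different J genes, 50.2% (43.5 to 56.9) had the productive J gene downstream. The Cre- library had 249 such barcodes, with 91 downstream, 84 upstream and 74 the same (52.0%, 44.3 to 59.6). The J gene farther downstream went with the V gene farther from the J genes in 110 Cre+ pairs and with the nearer V gene in 107 (50.7%, 43.8 to 57.5), and in 77 against 93 Cre- pairs (45.3%, 37.7 to 53.1).

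Barcodes with exactly 2 productive kappa contigs were also split near the middle. The contig with more UMIs had the downstream J gene in 112 of 227 Cre+ pairs (49.3%, 42.7 to 56.0) and 93 of 170 Cre- pairs (54.7%, 46.9 to 62.3). A further 80 and 64 pairs had the same J gene.

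**Figure D4:**
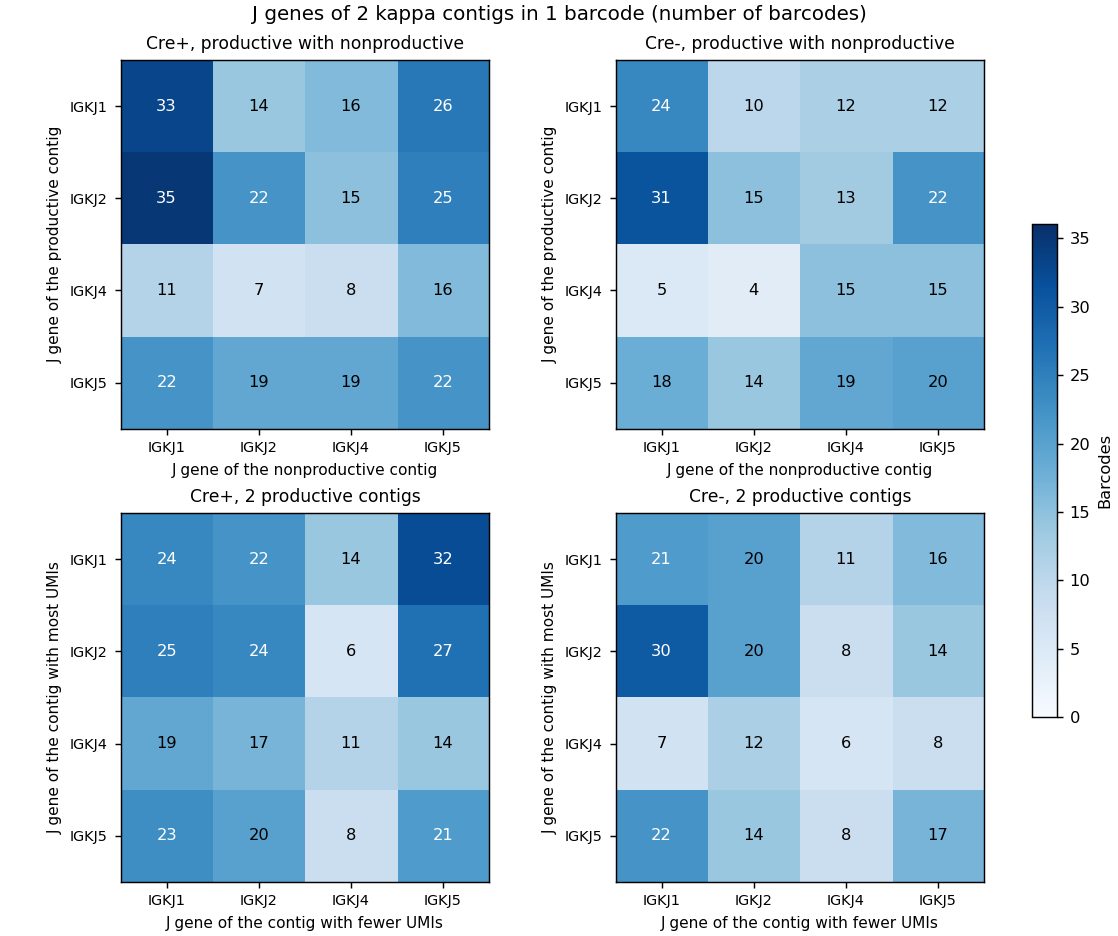
Number of barcodes (colour and printed count) with each pair of J genes, for a productive with a not productive kappa contig (top) and for 2 productive contigs (bottom), in the Cre+ (left) and Cre- (right) library. Rows give the J gene of the productive contig, or of that with most UMIs, and columns that of the other contig. Summed counts below and above the diagonal are 113 and 112 barcodes at the top left, and 93 and 77 at the bottom right. Single pairs of J genes are less even. Productive IGKJ2 with not productive IGKJ1 is in 35 (Cre+) and 31 (Cre-) barcodes, and the reverse in 14 and 10. Productive IGKJ4 with not productive IGKJ2 is in 7 and 4, and the reverse in 15 and 13.

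The J genes of contigs not called productive differed from those of productive ones in IGKJ2 above all. IGKJ2 was in 79 of 377 Cre+ (21.0%) and 52 of 306 Cre- contigs (17.0%), which differed from its share of productive contigs without the largest lineage by -9.53 points (-13.8 to -4.84) and -16.1 points (-20.5 to -11.1). IGKJ4 was higher, at 18.8% and 21.9%, by 4.60 points (0.61 to 9.06) and 8.81 points (4.12 to 14.0). IGKJ5 was at 30.5% and 30.4%, by 5.13 points (0.31 to 10.2) and 5.32 points (-0.03 to 11). IGKJ1 differed by -0.21 points (-5.01 to 4.89) and 1.98 points (-3.42 to 7.72). Over both libraries, IGKV1-135 made up 76 of the 683 contigs not called productive, against 271 of 7203 productive ones. It gave 61 of the 206 contigs with IGKJ1 that were not called productive. How far the mix of V genes bears on these differences was not tested. In full-length contigs alone, IGKJ2 was at 20.2% and 16.4%. These contigs were shallower, with medians of 7 to 10 UMIs by J gene, and Igkj2 is 39 bases long in the table used, against 38 for the other members. The part of either was not tested.

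The J gene of the productive chain was also compared between barcodes with and without such a second kappa contig, among those with 1 heavy and 1 productive kappa chain outside the largest lineage. IGKJ5 was in 75 of 274 Cre+ barcodes with it (27.4%) and 627 of 2559 without it (24.5%), a difference of 2.87 points (-2.60 to 8.79). In the Cre- library it was in 69 of 223 (30.9%) and 495 of 1996 (24.8%), a difference of 6.14 points (-0.17 to 12.9). IGKJ1 differed by -0.84 points (-6.48 to 5.21) and -6.73 points (-12.4 to -0.40). Only the last interval lay off 0.

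At the joint, the codon shown in capitals above kept its most frequent residue in most members, least so in IGKJ1. Without the largest lineage, tyrosine stood there in 89.0% (87.1 to 90.7) of Cre+ and 86.9% of Cre- IGKJ2 contigs, and leucine in 89.0% and 86.0% of IGKJ5 contigs. Phenylalanine stood there in 82.7% and 81.7% of IGKJ4 contigs. In IGKJ1, tryptophan stood there in 58.9% (56.0 to 61.8) and 63.4% (60.0 to 66.7), arginine in 23.8% and 21.0%, and proline in 10.6% and 10.8%. The full 12-base end printed first for each member made up 48.7% and 54.0% of IGKJ1, 75.5% and 72.8% of IGKJ2, 68.6% and 75.7% of IGKJ4 and 56.7% and 54.4% of IGKJ5 contigs. The end with leucine printed for IGKJ4 was in 6.57% and 8.20% of its contigs, and the same letters were in 17.7% and 18.5% of IGKJ5 contigs.

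**Figure D5:**
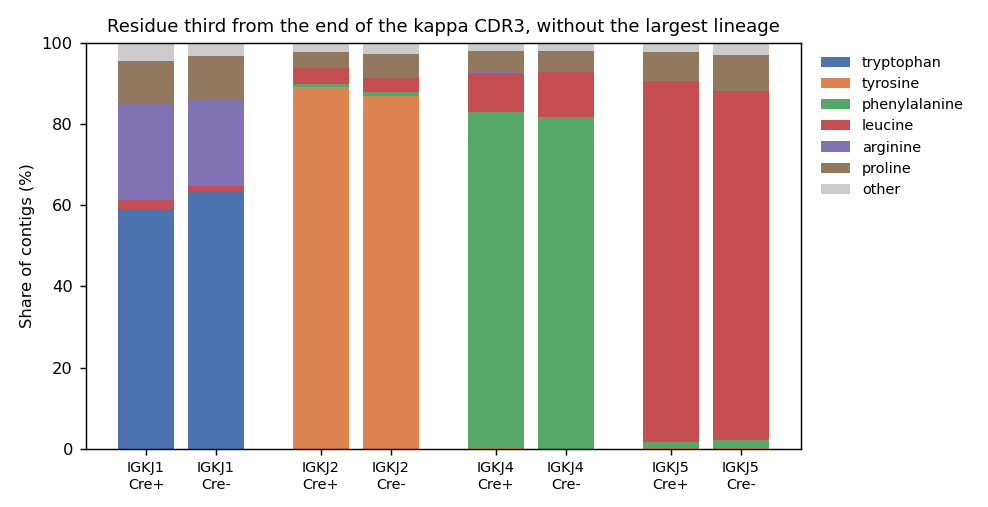
Residue at the third position from the end of the kappa CDR3, as a share of contigs (y axis, percent) for each J gene in each library, without the largest lineage. Each member has a residue of its own in most contigs, and IGKJ1 has the lowest share of its main residue, tryptophan, at 58.9% and 63.4%.

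CDR3 length hardly varied by J gene. The median was 11 residues for every member in both libraries, and 88.4% to 93.1% of Cre+ and 88.5% to 94.7% of Cre- contigs of a member had exactly that length. A length of 10 was the commonest other. It was found in 8.33% (6.80 to 10.1) of IGKJ1, 6.30% of IGKJ2, 3.28% (1.96 to 5.14) of IGKJ4 and 5.32% of IGKJ5 contigs of the Cre+ library without the largest lineage. The Cre- values were 9.64% (7.72 to 11.9), 7.11%, 2.91% (1.46 to 5.15) and 3.45%. IGKV19 led the IGKJ1 contigs of length 10, with 33 of 96 and 23 of 80. The extremes were 4 and 21 residues, both in the Cre+ library.

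By isotype (the constant gene of the heavy chain in barcodes with 1 heavy chain), the large differences of IgA, and that of IGKJ4 in IgG, were not seen without the clones. IgA, the class secreted into the gut, had IGKJ1 in 423 of 530 Cre- contigs (79.8%, 76.1 to 83.1) and in 48 of 216 Cre+ contigs (22.2%, 16.9 to 28.4). It had IGKJ5 in 31 of 530 (5.85%) and 83 of 216 (38.4%). Without the largest lineages, IGKJ1 was in 22.7% of Cre- and 29.3% of Cre+ IgA contigs and IGKJ5 in 23.5% and 21.3%. Against IgM this left IGKJ5 differences of -0.85 points (-8.13 to 7.58) and -2.91 points (-9.22 to 4.41). IGKJ2 was then the commonest member of IgA in both, at 38.6% in Cre- and 37.2% in Cre+.

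IgG contigs of the Cre+ library had IGKJ4 in 45 of 156 (28.8%, 21.9 to 36.6), against 15 of 115 (13%) in the Cre- library. The second-largest Cre+ lineage, of 29 cells, gave 28 of those IgG contigs, with an IGKV1-110 chain. Without the 2 largest lineages IGKJ4 was in 17 of 126 (13.5%, 8.06 to 20.7). IGKJ5 was then in 42 of 126 Cre+ IgG contigs (33.3%, 25.2 to 42.3), from 34 lineages, which was 9.08 points (0.71 to 18.2) above IgM. In the Cre- library it was in 33 of 115 (28.7%, 20.6 to 37.9), 4.30 points (-4.05 to 13.7) above IgM. Of the 8 differences of IgG from IgM, over 4 J genes and both libraries, only that of IGKJ5 in Cre+ had an interval off 0, and no adjustment was made for their number. In IgM and IgD contigs IGKJ5 was in 24.3% and 27.0% in the Cre+ and 24.4% and 27.9% in the Cre- library, without the 2 largest lineages. The only interval off 0 between IgD and IgM was that of IGKJ2 in Cre+ (28.3% against 31.9%, -3.63 points, -7.09 to -0.097).

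The chain of that IgG lineage differed from the usual end of IGKJ4 within the J gene. Its end is shown with the changed base in capitals, beside the usual end:
IGKJ4, usual: ccattcacgttc
IGKJ4, IgG lineage: ccattcacAttc
A base other than the usual in the last 6 bases, which all 4 members share in their most frequent ends, was counted as a late difference. Some such contigs differed in the first of the 6 bases and in the codon before it, so mutations and joints that reach that far were not told apart. It was seen in 4 of 2998 unswitched Cre+ contigs (0.13%, 0.036 to 0.34) and 6 of 2313 Cre- contigs (0.26%, 0.095 to 0.56). Without the 2 largest lineages it was seen in 14 of 164 Cre+ IgA contigs (8.54%, 4.75 to 13.9), from 13 lineages, and in 5 of 131 Cre- IgA contigs (3.82%, 1.25 to 8.68). In IgG it was seen in 2 of 126 (1.59%) and 4 of 115 (3.48%), and with the lineage in 30 of 156 Cre+ IgG contigs. Over the last 5 bases alone, without the 2 largest lineages, the counts were 3 of 2990 unswitched, 11 of 164 IgA (6.71%, 3.40 to 11.7) and 2 of 126 IgG contigs in Cre+, and 2 of 2308, 4 of 131 (3.05%, 0.84 to 7.63) and 3 of 115 in Cre-.

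Transcript counts were of the same order in all members, and somewhat lower with IGKJ5 than with IGKJ1. Without the largest lineage the medians of IGKJ5 and IGKJ1 were 26 and 29 UMIs in Cre+ and 27 and 32.5 in Cre-. Over all contigs, the median Cre+ contig had 29 UMIs with IGKJ1, 28 with IGKJ2, 26 with IGKJ4 and 25 with IGKJ5. In the Cre- library the medians were 20, 31, 32 and 27, and IGKJ1 had 32.5 without the largest lineage, whose contigs had a median of 5. Contigs with 500 or more UMIs numbered 28 and 25, with IGKJ5 in 4 of each.

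Many kappa chains recurred between the libraries. Counting each combination of V gene, J gene and CDR3 bases once, 133 chains with IGKJ1 were in both libraries, which is 44.6% of the 298 Cre+ and 56.6% of the 235 Cre- chains. For IGKJ2 it was 121 (41.9% of 289 and 44.0% of 275), for IGKJ4 71 (42% of 169 and 52.2% of 136) and for IGKJ5 126 (46.0% of 274 and 52.9% of 238). With each such chain counted once, IGKJ4 stood at 16.4% and 15.4%, above its share of contigs in both libraries.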

How the data were processed

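Per the labels, Peyer's patch cells enriched for CD45 were pooled per genotype and 5′ V(D)J libraries made, 1 per genotype. Cell Ranger and the GRCm38 build are named by the submitters' processing notes, with the version not given in the sources used. The contig tables the authors deposited give, per the file headers, each contig with its genes, CDR3 and its count of reads and UMIs, not normalized. The clonotype tables were not used here. Members and lists were chosen with earlier results of these data known. From the contigs, shares with exact 95% Clopper-Pearson intervals were computed (Python 3.11.15, scipy 1.17.1, pandas 2.3.3), with scripts tested on simulated data. Lineages used single linkage at 85% CDR3 identity. No p-value was given, since each group is 1 library. Named were all members, V families with 100 or more contigs, the V genes with the 3 highest and 3 lowest Cre+ shares of each member among those with 40 or more contigs per library, and combinations past a ratio of 1.5 with intervals apart. Of the 10 V genes with the most contigs, IGKV1-117, IGKV6-23 and IGKV6-17, not among those, had IGKJ1 in 44.8%, 13.4% and 37.8% of Cre+ contigs and 39.7%, 10.4% and 40.5% of Cre- contigs without the largest lineage. V distances and J coordinates come from RefSeq (GRCm38.p6). Alternatives covered chain number, UMIs, lineages, repeated chains and unswitched cells. Leaving out the 2 largest lineages (also with their kappa chains), counting late differences over 5 bases, and using full-length contigs alone for those not called productive, were added after seeing the data.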

Additional observations from a re-analysis of the deposited data

Results flagged for a closer look

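The IGKJ1 share of IgA contigs less that of IgM contigs was -8.48 points in the Cre+ library and 50.6 points in the Cre- library, so that the libraries moved in opposite directions, each with an interval off 0. The same held for IGKJ5, at 14.1 points in the Cre+ and -18.5 points in the Cre- library. The difference between the libraries was not tested, as each is a single library. Without the largest lineages the IGKJ1 values were -1.49 and -6.49 points and the IGKJ5 values -2.91 and -0.85 points, and each of these 4 intervals included 0.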

How the results depend on the processing

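The large Cre- clone moved most values. In the Cre- library, leaving out the barcodes of the largest lineage, leaving out its kappa chain, counting each lineage with its V and J gene once, counting each V, J and CDR3 once, keeping unswitched cells, and leaving out the 2 largest lineages gave, in this order, 28.7%, 28.4%, 28.1%, 26.6%, 28.6% and 28.7% for IGKJ1, 33.1%, 33.4%, 33.5%, 31.1%, 33.0% and 33.2% for IGKJ2, 13.1%, 13.1%, 12.9%, 15.4%, 12.9% and 13% for IGKJ4, and 25.1%, 25.1%, 25.5%, 26.9%, 25.5% and 25.1% for IGKJ5. In the Cre+ library, counting each chain once moved IGKJ2 to 28.1% and IGKJ4 to 16.4%, and leaving out the clone's chain moved IGKJ5 to 24.8%. Under the same 6 settings the IGKJ1 difference between libraries turned to 1.17, 1.67, 2.30, 2.35, 2.14 and 1.42 points, and that of IGKJ2 moved to -2.62, -2.61, -2.55, -3.05, -2.41 and -2.47. The IGKJ5 difference was 0.30 and 0.48 points without the largest and the 2 largest lineages, and turned to -0.32, -0.29, -0.32 and -0.21 under the others. The IGKJ4 difference moved to 0.54 (lineages once), 0.48 (unswitched) and 0.57 points (without the 2 largest lineages). The 11-residue share of IGKJ1 in Cre- moved to 88.1%, 87.9%, 88.3% and 88.0% without the largest lineage, without its chain, with lineages once and without the 2 largest lineages. Keeping 1 heavy chain, the main light chain or 3 or more UMIs moved none of these shares and differences past its interval, and all 16 alternatives for the order of J genes stayed inside theirs. Of the finer values, 29 of 160 by isotype, 17 of 160 by distance class, 13 of 120 by light chain number, 17 of 600 by family and 3 of 40 UMI medians moved past their interval. No paired analysis was possible because each group is 1 library. Depth limits the V genes with few contigs and the kappa with lambda barcodes most.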
